A study of Mus musculus with 9 samples.

Results

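The genes described here act in the uptake of fatty acids and in their mitochondrial beta-oxidation. They were 31 genes named by symbol, and 27 of the 31 had a transcript cluster (a set of probes for 1 transcript) that the platform annotation gives to that gene alone, out of 30050 genes so measured. Where a gene had several such clusters, the one with the highest mean over all arrays was used. Acsl3 and Etfb share their clusters with other genes, and Acsl1 and Ucp2 were not analysed here.

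The labels name the cells HL-1, an immortalized mouse cell line derived from atrial heart muscle, grown in medium with serum. Total RNA was hybridised to 9 Affymetrix arrays, 3 in each of 3 groups. DOX plus IFN-γ cells received 0.3 µM doxorubicin with 20 ng/ml interferon gamma, DOX cells received 0.3 µM doxorubicin, and Con cells received phosphate-buffered saline. Doxorubicin, an anthracycline drug, poisons topoisomerase II and breaks DNA, and interferon gamma is a cytokine of the immune response. No arrays of interferon gamma alone were analysed here, and the sources used here do not give the treatment length. The labels do not say whether replicates came from separate cultures, and the p-values therefore reflect array-to-array spread that may be technical.

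In beta-oxidation, a fatty acid that has entered the cell is joined to coenzyme A, carried into the mitochondrion as a carnitine ester, and shortened there in repeated rounds of 4 reactions: dehydrogenation, hydration, a second dehydrogenation and thiolytic cleavage. The electrons of the first dehydrogenation pass through electron transfer flavoprotein to the respiratory chain. The adult heart draws most of its energy from this pathway. The nuclear receptor PPARα is a main activator of its genes, and malonyl-CoA, which blocks carnitine palmitoyltransferase 1, is its main brake.

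Values are log2 expression values as deposited, so a difference of 1 is a doubling. Array medians lay between 4.08 and 4.17. To mark dim genes, a limit of 4.709 was set at the 95th percentile of the mean levels of 1373 olfactory and vomeronasal receptor genes, and 18 of the 27 genes lay above it. The other 9 were Cd36, Fabp3, Cpt1b, Acadm, Acaa1a, Ppara, Pdk4, Mlycd and Ucp3. Changes of such dim genes can be understated. The limit was applied to the mean over all 9 arrays, so a gene can pass it through the groups where it is high. Hadh passed through Con (5.05, against 4.61 in DOX plus IFN-γ and 4.64 in DOX). Cpt1c passed through the treated groups (5.05 in DOX plus IFN-γ and 5.12 in DOX, against 4.65 in Con). Con replicate 1, the 3 DOX arrays and DOX plus IFN-γ replicates 1 and 2 reach the same top value of 19.9315 and share 82 to 186 exactly identical values in each pair, whereas pairs with the other 3 arrays share 1 to 17. The effect of this unevenly spread grouping was checked by fits with the grouping as a block and on the 6 arrays alone. Con replicate 3 lay apart from its group on the second principal component (14.2% of the variance).

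The labelled cell type was checked against its markers. Of 14 cardiomyocyte markers, 3 (Tnnt2, Actn2 and Nkx2-5) lay above the limit, which goes against the label. The atrial and cardiac genes Myh6 (4.34 ± 0.02, 4.34 ± 0.06 and 4.29 ± 0.04 in DOX plus IFN-γ, DOX and Con cells, SD, n = 3 each) and Nppa did not. By contrast, 7 of 13 skeletal muscle markers, 6 of 9 fibroblast markers and 4 of 6 smooth muscle markers lay above it. These counts use the mean over all 9 arrays and so mix the groups. Myog, which drives skeletal muscle differentiation, averaged 4.61 ± 0.15 in DOX plus IFN-γ cells, 4.76 ± 0.22 in DOX cells and 8.18 ± 0.19 in Con cells. In treated cells it thus lay near the limit. No marker of adipocytes (9), hepatocytes (7), endothelium (7) or leukocytes (9) lay above the limit. The skeletal muscle markers moved both ways: 3 rose and 4 fell with DOX plus IFN-γ (median change 0.046), and 5 rose and 4 fell with DOX (median change -0.058). Their mean log2 level was 5.02 to 5.11 on DOX plus IFN-γ arrays, 5.09 to 5.19 on DOX arrays and 5.34 to 5.42 on Con arrays, with the largest change in Myog (-3.57 with DOX plus IFN-γ and -3.42 with DOX). Of the fibroblast markers, 2 rose and 5 fell in each comparison with Con, and their mean was 8.86 to 8.99 on DOX plus IFN-γ arrays, 8.94 to 9.02 on DOX arrays and 9.61 to 9.76 on Con arrays. All 6 smooth muscle markers were lower by value in each comparison and 3 fell, with a mean of 7.96 to 8 on DOX plus IFN-γ arrays, 8.04 to 8.14 on DOX arrays and 8.41 to 8.50 on Con arrays. Of the cardiomyocyte markers, 2 fell with DOX plus IFN-γ (Tnnt2 and Nkx2-5) and 1 with DOX (Tnnt2), with a median change of 0.026 with DOX plus IFN-γ and 0.012 with DOX. Their mean was 4.40 to 4.41 on DOX plus IFN-γ arrays, 4.39 to 4.44 on DOX arrays and 4.50 on every Con array. Over all genes, 12015 of 30050 lay above the limit. With DOX plus IFN-γ, 53.8% of skeletal muscle, 77.8% of fibroblast, 50% of smooth muscle and 14.3% of cardiomyocyte markers were called (all genes 17.4%). With DOX these shares were 69.2%, 77.8%, 50% and 7.14% (all genes 15.6%). Of all genes above the limit, 36.8% were called with DOX plus IFN-γ and 33.1% with DOX. The part of these marker changes in the changes described here was not tested. In such bulk RNA, fewer cells of a type and less RNA per cell cannot be told apart.

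Windows of 250 bases before the start site, from RefSeq on GRCm38.p6, are shown for the 3 genes with the largest rise under doxorubicin (Hadhb, Etfa and Acsl5), for Cpt1c, whose window holds the nuclear receptor hexamer, and for Hadh, 1 of the 2 genes that fell. They are written on the strand of the gene, 5′ to 3′. Capitals mark matches, on either strand, to the CCAAT box (CCAAT), the GC box (GGGCGG) and the nuclear receptor hexamer (AGGTCA). The windows are chr5:30155003-30155252 (plus strand) for Hadhb, chr9:55512244-55512493 (minus strand) for Etfa, chr19:55253119-55253368 (plus strand) for Acsl5, chr7:44974852-44975101 (minus strand) for Cpt1c and chr3:131272102-131272351 (minus strand) for Hadh. The Acsl5 window lies inside the annotated gene, which begins at 55251861. The Cpt1c window overlaps its gene, which reaches 44974880. These windows therefore do not precede the outermost start of the gene.
Hadhb: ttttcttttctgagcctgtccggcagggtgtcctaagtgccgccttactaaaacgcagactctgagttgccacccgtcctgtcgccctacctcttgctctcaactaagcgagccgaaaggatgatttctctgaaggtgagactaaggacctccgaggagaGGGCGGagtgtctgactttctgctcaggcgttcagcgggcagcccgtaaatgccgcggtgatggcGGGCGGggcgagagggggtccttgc
Etfa: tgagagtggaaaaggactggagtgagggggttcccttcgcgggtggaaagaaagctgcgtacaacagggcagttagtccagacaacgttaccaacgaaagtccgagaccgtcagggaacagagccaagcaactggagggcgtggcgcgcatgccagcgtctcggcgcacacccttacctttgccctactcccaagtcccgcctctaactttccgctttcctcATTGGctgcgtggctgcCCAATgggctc
Acsl5: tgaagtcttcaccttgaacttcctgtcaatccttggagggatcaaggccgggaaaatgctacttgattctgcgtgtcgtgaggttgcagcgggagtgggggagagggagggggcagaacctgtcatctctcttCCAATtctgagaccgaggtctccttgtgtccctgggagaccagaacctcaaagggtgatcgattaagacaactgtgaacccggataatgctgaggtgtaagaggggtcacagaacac
Cpt1c: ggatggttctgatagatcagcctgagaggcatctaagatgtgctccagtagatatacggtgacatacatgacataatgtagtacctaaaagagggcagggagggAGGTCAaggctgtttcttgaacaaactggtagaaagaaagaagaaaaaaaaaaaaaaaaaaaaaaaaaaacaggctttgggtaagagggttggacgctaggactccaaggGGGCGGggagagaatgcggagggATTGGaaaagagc
Hadh: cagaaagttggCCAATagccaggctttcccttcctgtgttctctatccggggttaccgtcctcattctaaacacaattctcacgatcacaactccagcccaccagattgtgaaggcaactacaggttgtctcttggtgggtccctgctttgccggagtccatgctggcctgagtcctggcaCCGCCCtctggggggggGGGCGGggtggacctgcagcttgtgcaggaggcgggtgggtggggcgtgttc

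A window was found for 24 of the 27 measured genes. The GC box lay in 15 of the 24 windows (62.5%), against 32.7% of all 32851 windows of that length, and the CCAAT box in 11 (45.8%), against 33.8%. The hexamer AGGTCA lay in 7 (29.2%), against 14.0%. The full PPAR element, 2 copies of that hexamer with 1 base between them, lay in 0 of the 24 windows and in 0.0335% of all windows. The oestrogen-related receptor site TCAAGGTCA, which also holds it, lay in 0 and in 0.387%, and the p53-binding motif in 0 and in 7.13%. Among the 8 genes that rose under doxorubicin, 5 had a CCAAT box, 4 a GC box and 3 the hexamer. These matches describe letters only.

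Doxorubicin raised 8 of the 27 genes and lowered 2. Those that rose were Acsl5, Hadhb, Etfa, Acadvl, Mlycd, Cpt1c, Cpt1a and Slc25a20, and those that fell were Acaa2 and Hadh. The rises were spread over the steps of the pathway: 1 acyl-CoA synthetase, 3 of 5 carnitine shuttle genes, 1 of 4 acyl-CoA dehydrogenases, 1 subunit of the trifunctional protein and 1 subunit of electron transfer flavoprotein. Cpt1c, counted in the shuttle, encodes a form with little catalytic activity. Ppara, which encodes the nuclear receptor PPARα, Pdk4, Cd36, Acadm and Cpt1b were dim and did not pass the test.

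The 8 that rose are 29.6% of the 27 genes, against 8.06% of all 30050 genes called higher in DOX than in Con, and the 2 that fell are 7.41%, against 7.53% called lower. In either direction, 10 of 27 (37.0%) were called, against 15.6% of all genes. Genes above the limit are called more often in general: 7 of the 18 such members rose and 2 fell (50.0%), against 17.4% and 15.7% (33.1% in all) of the 12015 genes above it. The limit uses the arrays that are compared, so changed genes can pass it through their high group. Among the called members, Cpt1c and Hadh did so. Shares above the limit are therefore descriptions only. The median change of the 27 genes was -0.009, near that of all genes at -0.015. In the comparison of DOX plus IFN-γ with Con, 7 rose, 2 fell and 18 did not pass, against 8.01% of all genes higher and 9.41% lower, and Slc25a20 was the gene no longer called. Above the limit, 6 rose and 2 fell of 18 (44.4%), against 17.2% and 19.7% of all genes above it (36.8% in all). The DOX plus IFN-γ arrays lay wholly above the Con arrays for 8 genes and wholly below for 7 (55.6%, against 33% of all genes), and the DOX arrays for 9 and 6 (55.6%, against 32.9%). Above the limit these shares were 61.1% with DOX plus IFN-γ, against 54.5% of all genes above it, and 66.7% with DOX, against 55%. Both comparisons use the same Con arrays.

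**Figure D1:**
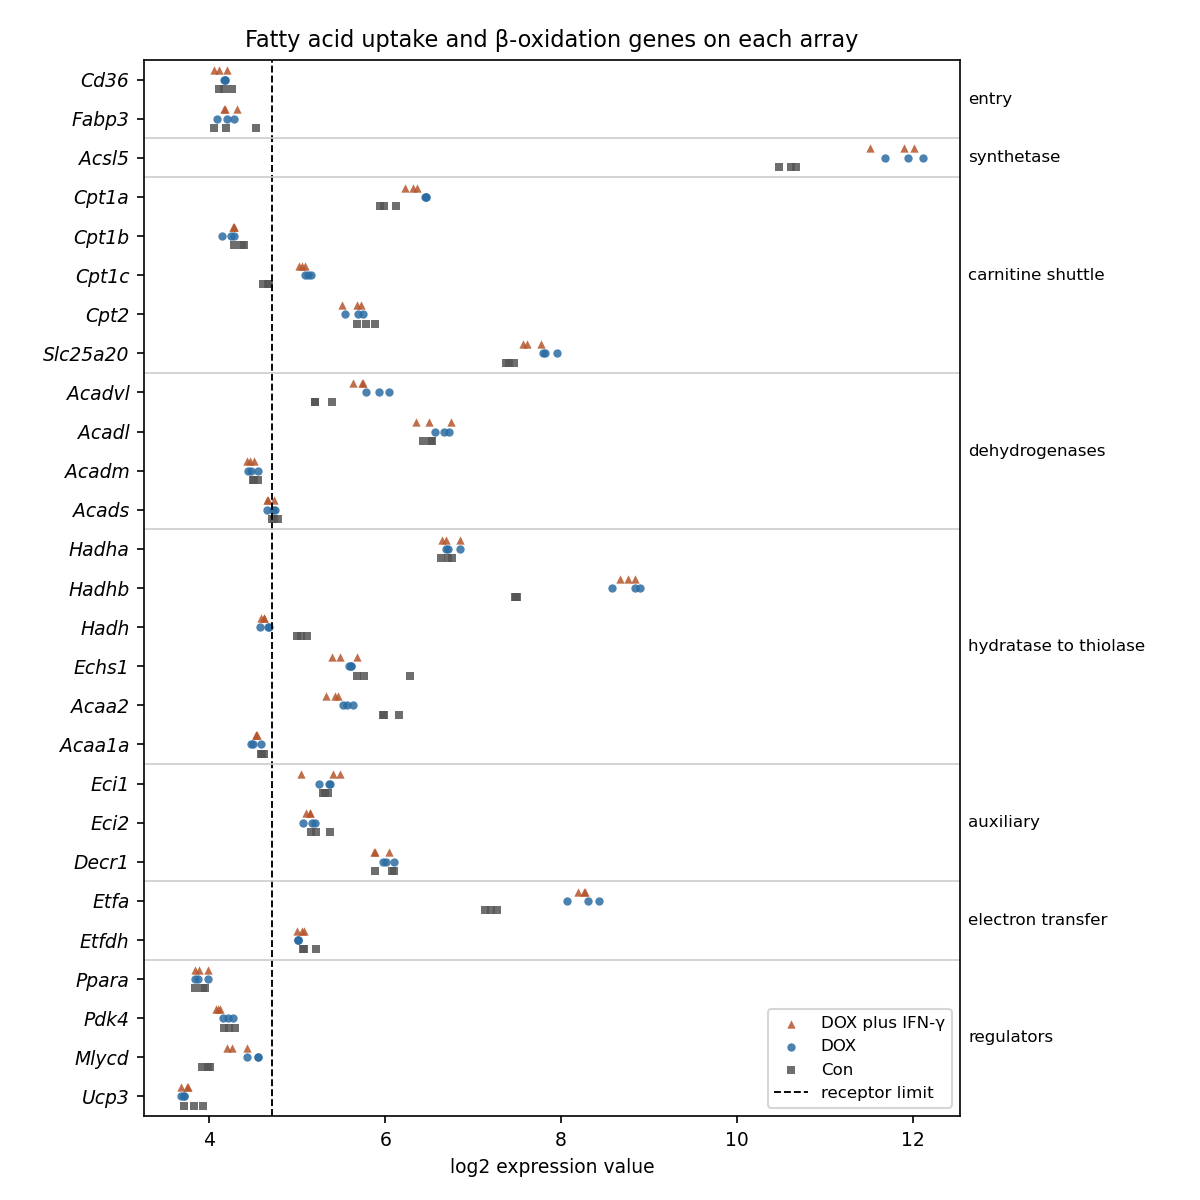
Log2 expression value (horizontal axis) of each of the 27 genes on every array, in order of their step in the pathway, with DOX plus IFN-γ as triangles, DOX as circles and Con as squares. The treated arrays of Acsl5, Hadhb and Etfa lie wholly to the right of the Con arrays, those of Hadh and Acaa2 to the left, and 9 genes average at or below the dashed limit of 4.709.

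Cd36 and Fabp3, the 2 of the 27 genes that act in the entry and binding of fatty acids, were dim and did not pass the test. Cd36 encodes the fatty acid translocase of the plasma membrane and is a classical PPAR target. Cd36 read 4.20, 4.05 and 4.11 on the DOX plus IFN-γ arrays, 4.18, 4.18 and 4.16 on the DOX arrays, and 4.26, 4.16 and 4.11 on the Con arrays. All 9 values lay under the limit and the groups overlapped, with a difference from Con of -0.06 with DOX plus IFN-γ (95% interval -0.19 to 0.08, adjusted p = 0.592) and of -0.0036 with DOX (95% interval -0.14 to 0.13, adjusted p = 0.982). Fabp3, the fatty acid-binding protein of heart and muscle, was as dim, at 4.05 to 4.53 over the 9 arrays, and its differences from Con were -0.03 with DOX plus IFN-γ (adjusted p = 0.897) and -0.06 with DOX (adjusted p = 0.804).

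Acsl5, the 1 acyl-CoA synthetase gene measured among the 27, rose. It encodes a long-chain acyl-CoA synthetase that makes the acyl-CoA used for both oxidation and triglyceride synthesis. Acsl5 read 11.51, 11.90 and 12.02 on the DOX plus IFN-γ arrays, 11.94, 12.12 and 11.68 on the DOX arrays, and 10.48, 10.62 and 10.67 on the Con arrays. Every treated array lay above every Con array, and the treated groups overlapped. Acsl5 was 2.33 times as high in DOX plus IFN-γ as in Con (1.22 on the log2 scale, SE 0.15, adjusted p = 0.000689) and 2.50 times as high in DOX as in Con (1.32, adjusted p = 0.000488). By size its rise with DOX ranked 152 among the 2423 genes called higher. A second, dim cluster of the gene differed from Con by 0.05 with DOX plus IFN-γ and by 0.28 with DOX. Outside the 27 genes, Acsl4, another long-chain synthetase gene, differed from Con by 0.31 with DOX plus IFN-γ (adjusted p = 0.217) and 0.13 with DOX (adjusted p = 0.662), and neither difference passed the test, nor did those of Acsl6.

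The carnitine shuttle moved in part. The enzyme of the outer membrane, carnitine palmitoyltransferase 1, makes the acylcarnitine and is the step that malonyl-CoA inhibits. Cpt1a encodes its liver form, Cpt1b its muscle form and Cpt1c a form found mainly in neurons, where it lies in the endoplasmic reticulum and has little catalytic activity. Cpt1a and Cpt1c rose, while Cpt1b stayed under the limit.

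Cpt1a read 6.23, 6.32 and 6.37 on the DOX plus IFN-γ arrays, 6.46, 6.45 and 6.46 on the DOX arrays, and 5.99, 5.94 and 6.13 on the Con arrays. The 3 groups did not overlap, with DOX highest and Con lowest. The rise was 1.22-fold with DOX plus IFN-γ (0.29, SE 0.062, adjusted p = 0.0133) and 1.35-fold with DOX (0.44, adjusted p = 0.00168). The call with DOX plus IFN-γ ended on the 6 arrays that reach the top value (0.28, adjusted p = 0.0967), without Con replicate 2 (0.25, adjusted p = 0.0506) and without DOX plus IFN-γ replicate 2 (0.28, adjusted p = 0.0502). Cpt1c read 5.09, 5.02 and 5.05 on the DOX plus IFN-γ arrays, 5.15, 5.12 and 5.08 on the DOX arrays, and 4.66, 4.61 and 4.68 on the Con arrays. All Con values of Cpt1c lay just under the limit and all treated values above it. Cpt1c rose 1.32-fold with DOX plus IFN-γ (0.40, SE 0.047, adjusted p = 0.000576) and 1.39-fold with DOX (0.47, adjusted p = 0.000267).

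Cpt1b, the form that predominates in adult heart and skeletal muscle, read 4.28, 4.28 and 4.26 on the DOX plus IFN-γ arrays, 4.14, 4.25 and 4.28 on the DOX arrays, and 4.28, 4.38 and 4.39 on the Con arrays. The treated arrays lay just under the lowest Con array, and all 9 values stayed under the limit. Cpt1b differed from Con by -0.08 with DOX plus IFN-γ (adjusted p = 0.408) and -0.13 with DOX (adjusted p = 0.165).

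Slc25a20 encodes the carrier that exchanges acylcarnitine for carnitine across the inner membrane. Slc25a20 read 7.56, 7.61 and 7.78 on the DOX plus IFN-γ arrays, 7.82, 7.95 and 7.79 on the DOX arrays, and 7.38, 7.41 and 7.47 on the Con arrays. The DOX arrays were highest, the Con arrays lowest, and no group overlapped another. The rise was 1.35-fold with DOX (0.43, SE 0.072, adjusted p = 0.00374). With DOX plus IFN-γ the difference of 0.23 did not pass the test (adjusted p = 0.0591), although it did after quantile normalization (adjusted p = 0.0336), among genes above the limit alone (adjusted p = 0.0356) and with the array grouping as a block (adjusted p = 0.0274). Cpt2, the inner-membrane enzyme that returns the acyl group to coenzyme A, differed from Con by -0.14 with DOX plus IFN-γ (adjusted p = 0.332) and -0.12 with DOX (adjusted p = 0.438).

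**Figure D2:**
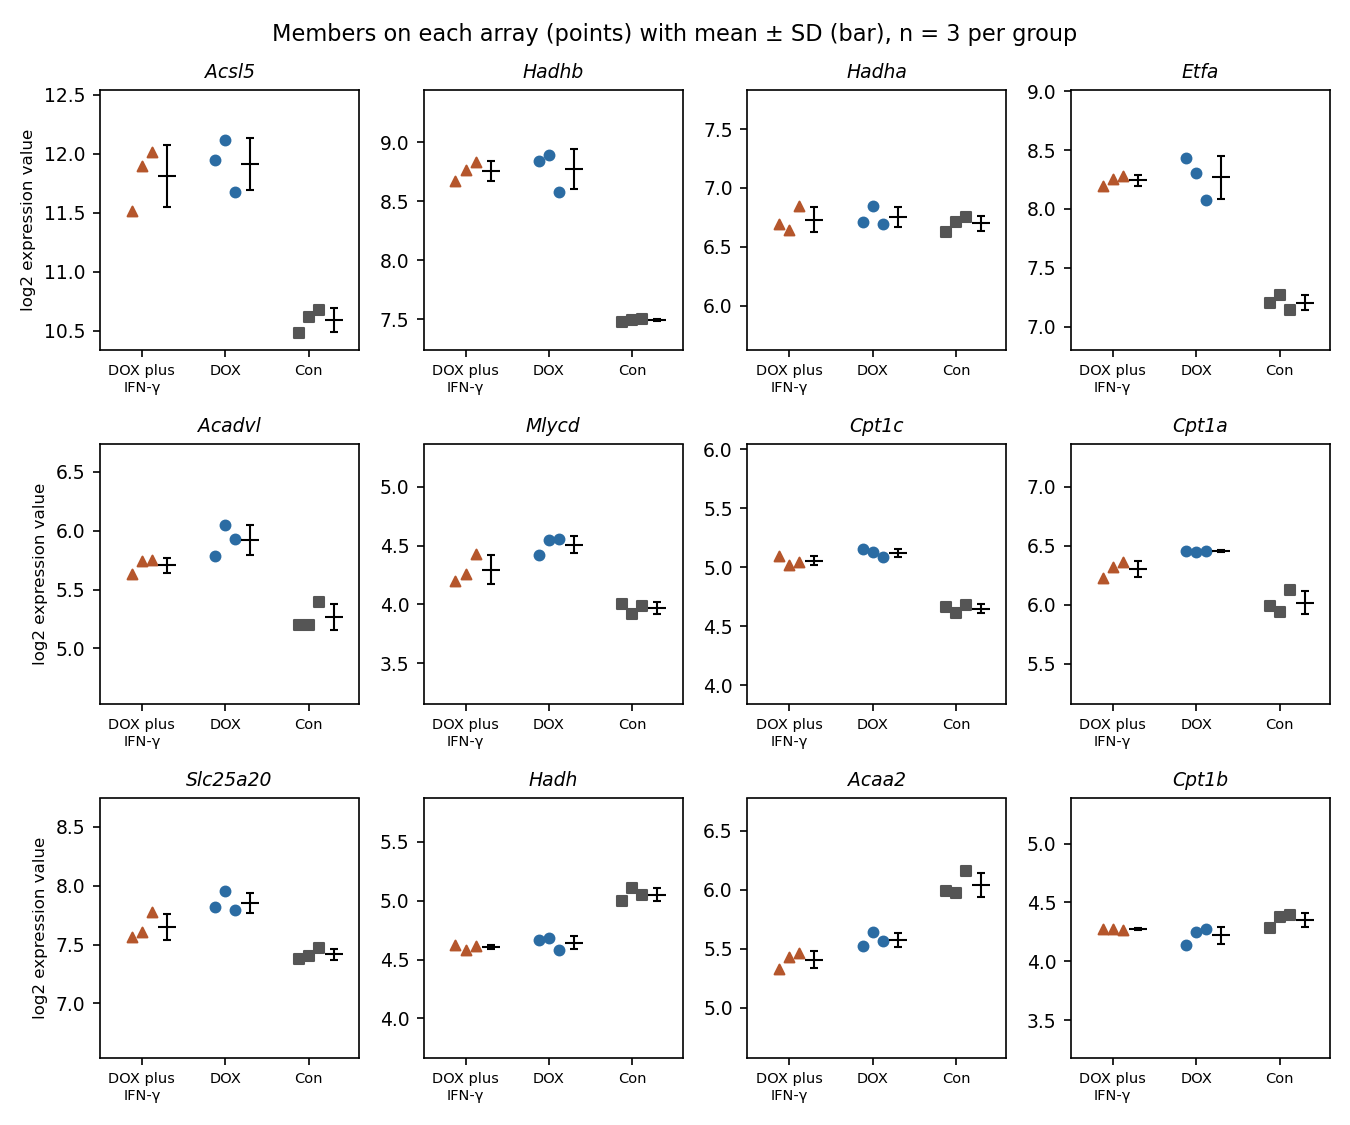
Log2 expression value on each array (points) of the 10 genes called under doxorubicin, with Hadha and Cpt1b for comparison; each panel shows DOX plus IFN-γ, DOX and Con from left to right, the bars are mean ± SD of 3 arrays, and every panel spans the same number of log2 units. The treated means of Acsl5 and Hadhb lie 1.22 to 1.32 log2 units above Con, while Hadha overlaps between treated and Con arrays and Cpt1b differs by 0.13 at most.

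Of the acyl-CoA dehydrogenases, which catalyse the first reaction for chains of different length, the one for the longest chains rose. Acadvl (very long chains, bound to the inner membrane) read 5.63, 5.74 and 5.75 on the DOX plus IFN-γ arrays, 5.79, 6.05 and 5.93 on the DOX arrays, and 5.20, 5.20 and 5.39 on the Con arrays. Its treated arrays lay above all Con arrays, with DOX above DOX plus IFN-γ. Acadvl rose 1.36-fold with DOX plus IFN-γ (0.44, SE 0.083, adjusted p = 0.00679) and 1.57-fold with DOX (0.66, adjusted p = 0.000961). The call with DOX plus IFN-γ ended on the 6 arrays that reach the top value (0.49, adjusted p = 0.0877).

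Acadm, the medium-chain enzyme and a widely used PPARα target, read 4.42, 4.46 and 4.51 on the DOX plus IFN-γ arrays, 4.44, 4.47 and 4.56 on the DOX arrays, and 4.50, 4.55 and 4.50 on the Con arrays. All 9 values lay under the limit and the 3 groups overlapped. Acadm differed from Con by -0.05 with DOX plus IFN-γ (adjusted p = 0.573) and -0.03 with DOX (adjusted p = 0.798). The long-chain Acadl differed from Con by 0.04 with DOX plus IFN-γ (adjusted p = 0.851) and 0.16 with DOX (adjusted p = 0.358). The short-chain Acads differed by -0.05 with DOX plus IFN-γ (adjusted p = 0.551) and -0.03 with DOX (adjusted p = 0.755). Acads averaged 4.7125 over all arrays, barely above the limit, so it was nearly as dim as the genes under it.

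The later reactions of the cycle moved in opposite directions. Hadhb rose and Hadha, which encodes its partner subunit, did not pass the test. Hadh and Acaa2, the enzymes of the corresponding steps for shorter chains in the matrix, fell. Trifunctional protein, made of the products of Hadha (hydratase and long-chain hydroxyacyl-CoA dehydrogenase) and Hadhb (long-chain thiolase), carries out the last 3 reactions for long chains.

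Hadhb read 8.67, 8.76 and 8.84 on the DOX plus IFN-γ arrays, 8.84, 8.89 and 8.58 on the DOX arrays, and 7.48, 7.49 and 7.50 on the Con arrays. The 6 treated arrays overlapped each other and lay at least 1 log2 unit above every Con array. Hadhb was 2.41 times as high in DOX plus IFN-γ as in Con (1.27, SE 0.085, adjusted p = 3.48e-05) and 2.43 times as high in DOX as in Con (1.28, adjusted p = 3.30e-05). Hadha read 6.70, 6.64 and 6.85 on the DOX plus IFN-γ arrays, 6.71, 6.85 and 6.69 on the DOX arrays, and 6.63, 6.71 and 6.76 on the Con arrays. The 3 groups overlapped, and Hadha differed from Con by 0.03 with DOX plus IFN-γ (95% interval -0.13 to 0.19, adjusted p = 0.849) and by 0.05 with DOX (95% interval -0.11 to 0.22, adjusted p = 0.731).

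The change of Hadhb thus exceeded that of Hadha by 1.24 log2 units with DOX plus IFN-γ and by 1.23 with DOX, given as a description. The 2 genes lie head to head on chromosome 5, with 272 bases between their start sites at 30154980 (Hadha, minus strand) and 30155253 (Hadhb, plus strand) on GRCm38.p6. Of the Hadhb window, 228 bases are also in the window before the Hadha start site. That shared stretch holds the first of the 2 GC boxes, and the second GC box runs past its end.

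Hadh, the matrix hydroxyacyl-CoA dehydrogenase for short and medium chains, read 4.62, 4.58 and 4.62 on the DOX plus IFN-γ arrays, 4.67, 4.68 and 4.58 on the DOX arrays, and 5.001, 5.11 and 5.04 on the Con arrays. Every treated array lay below every Con array and under the limit. Hadh fell by 0.44 with DOX plus IFN-γ (SE 0.051, adjusted p = 0.000533) and fell by 0.41 with DOX (adjusted p = 0.000881), and its fall with DOX missed the threshold on the 6 arrays that reach the top value (-0.36, adjusted p = 0.0508). Acaa2, the matrix thiolase, read 5.33, 5.43 and 5.46 on the DOX plus IFN-γ arrays, 5.53, 5.64 and 5.56 on the DOX arrays, and 5.99, 5.97 and 6.16 on the Con arrays. Con was highest, DOX plus IFN-γ lowest, and the groups did not overlap. Acaa2 fell by 0.63 with DOX plus IFN-γ (SE 0.068, adjusted p = 0.000382) and fell by 0.46 with DOX (adjusted p = 0.00203), to 0.645 of the Con level with DOX plus IFN-γ and 0.725 with DOX.

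Echs1, the matrix enoyl-CoA hydratase, lay below Con by value but did not pass the test. It differed by -0.39 with DOX plus IFN-γ (adjusted p = 0.116) and -0.31 with DOX (adjusted p = 0.224), and 1 Con array at 6.28 stood above the other Con arrays at 5.76 and 5.68. Acaa1a, a peroxisomal thiolase, was dim at 4.48 to 4.62 and differed by -0.07 with DOX plus IFN-γ (adjusted p = 0.387) and -0.08 with DOX (adjusted p = 0.318). None of the 3 auxiliary enzymes that prepare unsaturated fatty acids for the cycle, Eci1, Eci2 and Decr1, passed the test, with differences from Con between -0.12 and 0.01.

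Electrons from the acyl-CoA dehydrogenases are taken up by electron transfer flavoprotein, of which Etfa encodes the alpha subunit, and handed to ubiquinone by the product of Etfdh. Etfa read 8.19, 8.26 and 8.28 on the DOX plus IFN-γ arrays, 8.43, 8.30 and 8.07 on the DOX arrays, and 7.20, 7.27 and 7.14 on the Con arrays. All treated arrays lay above all Con arrays, and the treated groups overlapped. Etfa was 2.05 times as high in DOX plus IFN-γ as in Con (1.04, SE 0.089, adjusted p = 0.000113) and 2.09 times as high in DOX as in Con (1.06, adjusted p = 0.000106). Etfdh did not pass, at -0.08 with DOX plus IFN-γ (adjusted p = 0.405) and -0.11 with DOX (adjusted p = 0.233). Etfb, the beta subunit, has no cluster of its own and could not be set beside Etfa.

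**Figure D3:**
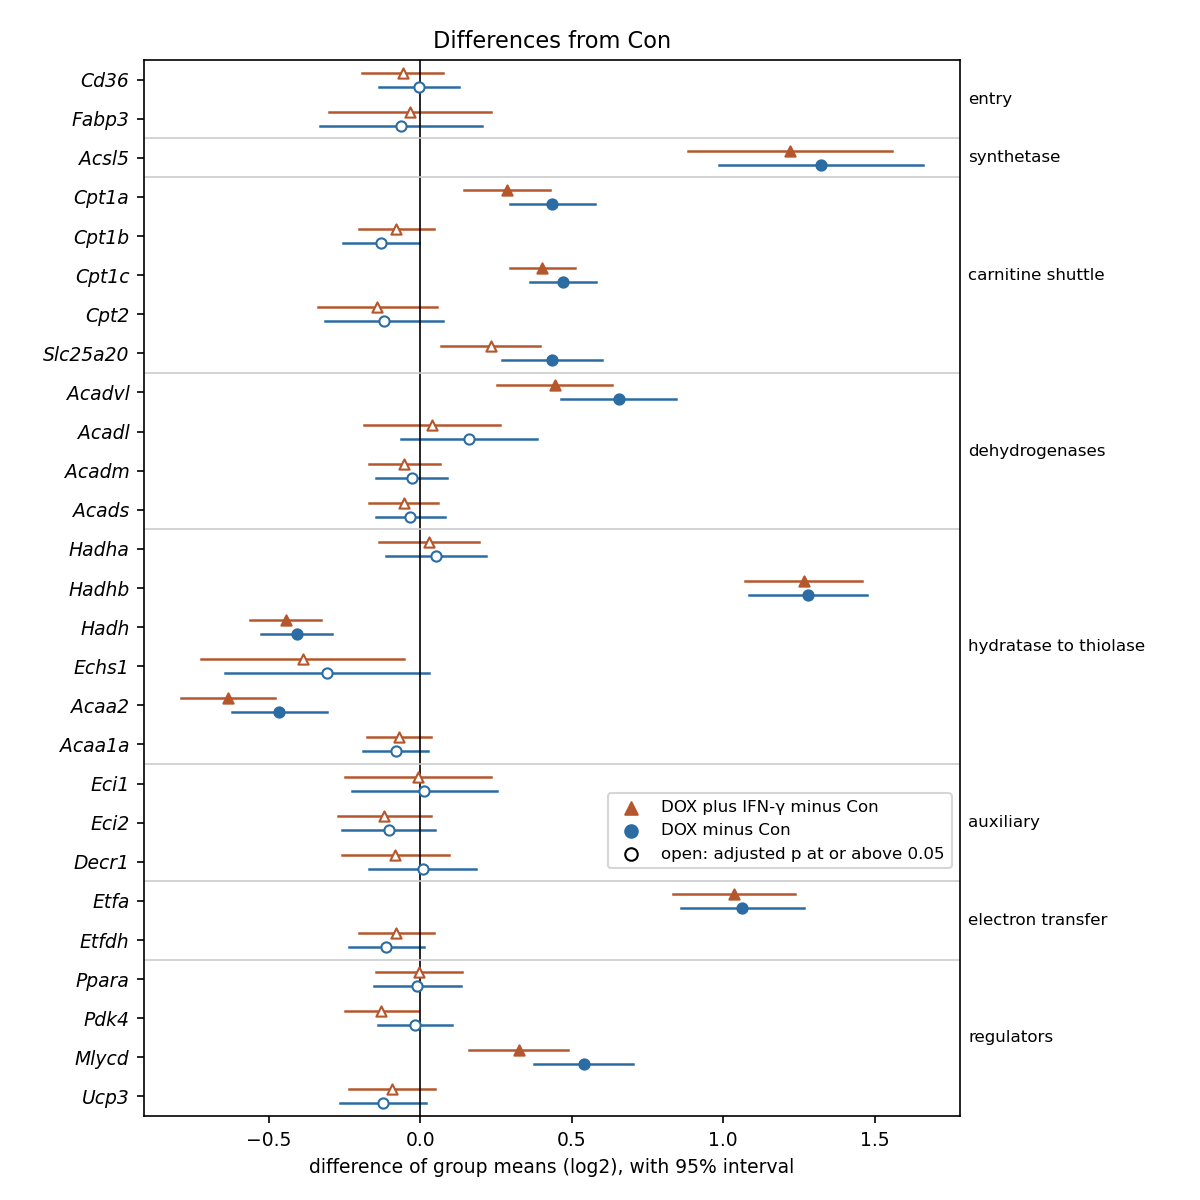
Difference of each gene from Con on the log2 scale with its 95% interval, for DOX plus IFN-γ (triangles) and DOX (circles), grouped by step; filled symbols passed an adjusted p of 0.05. Acsl5, Hadhb and Etfa lie beyond 1 in both comparisons, and Hadh and Acaa2 are the 2 genes with filled symbols below 0.

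Among the regulators, Mlycd rose and the others did not pass. Mlycd encodes malonyl-CoA decarboxylase, which removes the inhibitor of carnitine palmitoyltransferase 1. Mlycd read 4.20, 4.26 and 4.43 on the DOX plus IFN-γ arrays, 4.42, 4.55 and 4.56 on the DOX arrays, and 4.01, 3.92 and 3.99 on the Con arrays. The treated arrays lay above the Con arrays, yet every value was under the limit. Mlycd rose 1.25-fold with DOX plus IFN-γ (0.33, SE 0.072, adjusted p = 0.0148) and 1.45-fold with DOX (0.54, adjusted p = 0.00122). Its second cluster did not move alike, at 0.00 with DOX plus IFN-γ and -0.06 with DOX. The call with DOX plus IFN-γ ended with the mean of both clusters (0.16, adjusted p = 0.105), without Con replicate 2 (0.30, adjusted p = 0.0568) and on the 6 arrays that reach the top value (0.22, adjusted p = 0.239).

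Ppara, the nuclear receptor PPARα, read 3.88, 3.84 and 3.99 on the DOX plus IFN-γ arrays, 3.87, 3.84 and 3.98 on the DOX arrays, and 3.84, 3.93 and 3.95 on the Con arrays. Its 9 values lay between 3.84 and 3.99, well under the limit, with differences from Con of -0.0048 with DOX plus IFN-γ (adjusted p = 0.975) and -0.01 with DOX (adjusted p = 0.953). Pdk4, the pyruvate dehydrogenase kinase that shifts fuel use toward fatty acids, read 4.10, 4.12 and 4.07 on the DOX plus IFN-γ arrays, 4.26, 4.21 and 4.15 on the DOX arrays, and 4.16, 4.22 and 4.29 on the Con arrays. The DOX plus IFN-γ arrays were lowest, without overlap with either other group, but the difference from Con of -0.13 did not pass (adjusted p = 0.153), nor did that of -0.02 with DOX (adjusted p = 0.885). Ucp3, a mitochondrial carrier of muscle, was dim as well and differed from Con by -0.09 with DOX plus IFN-γ (adjusted p = 0.390) and -0.12 with DOX (adjusted p = 0.258).

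Adding interferon gamma to doxorubicin moved no beta-oxidation gene past the threshold. By limma, 0 of the 27 genes and 0 of the 30050 (0%) were called between DOX plus IFN-γ and DOX. The smallest adjusted p among the 27 genes was 0.976, and at an unadjusted p under 0.05 there were 5 of the 27 (18.5%), against 1503 of all genes (5%). These 5 were Mlycd (-0.21, 95% interval -0.38 to -0.05), Acadvl (-0.21, -0.40 to -0.02), Slc25a20 (-0.20, -0.37 to -0.04), Acaa2 (-0.17, -0.32 to -0.01) and Cpt1a (-0.15, -0.29 to -0.01). All 5 were lower in DOX plus IFN-γ than in DOX. Of these, Acadvl, Slc25a20, Acaa2 and Cpt1a, together with Pdk4 (-0.11, 95% interval -0.23 to 0.01), had DOX plus IFN-γ arrays that lay wholly below the DOX arrays, which is 18.5% of the genes against 6.69% of all genes. No gene of the 27 had them wholly above, against 4.56% of all genes.

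By sign, 21 of the 27 genes (77.8%) were lower in DOX plus IFN-γ than in DOX, against 54.2% of all genes, and the differences ran between -0.21 and 0.05 with a median of -0.027, against -0.008 over all genes. Genes above the limit were lower more often in general, at 59.8% with a median of -0.027. Of the 18 members above it, 17 (94.4%) were lower, with a median of -0.052. The 3 genes with the largest rise under doxorubicin differed little between the treated groups: Hadhb by -0.01 (95% interval -0.21 to 0.18), Etfa by -0.03 (-0.23 to 0.18) and Acsl5 by -0.10 (-0.44 to 0.23).

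**Figure D4:**
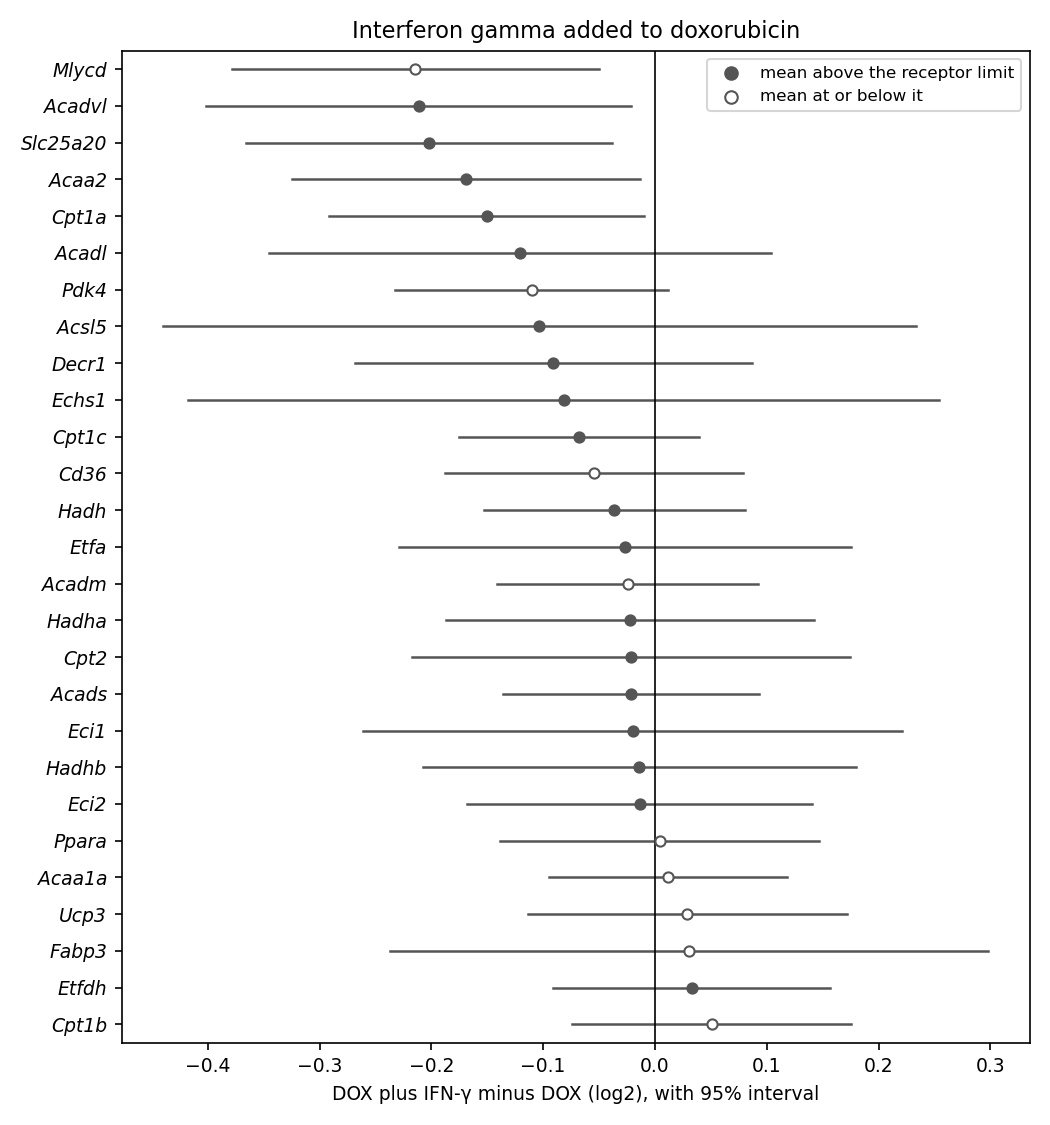
Difference between DOX plus IFN-γ and DOX for each of the 27 genes on the log2 scale with its 95% interval, ordered by size, with open circles for genes at or below the limit. Most genes lie left of 0 and the intervals of 5 genes leave out 0, but no gene passed after adjustment over all genes.

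Further genes of lipid metabolism were counted in 10 lists outside the 27 genes. Over all genes, 17.4% were called with DOX plus IFN-γ (36.8% of those above the limit) and 15.6% with DOX (33.1% above the limit), each with a median change of -0.015, and a list near these shares shows nothing of its own. Of 6 genes of carnitine supply, 2 rose and 1 fell in each comparison with Con. Carnitine supply thus had 50% of its genes called with DOX plus IFN-γ (100% of the 3 above the limit, median change 0.119) and 50% with DOX (100% of the 3, median change 0.151). Slc22a5, the plasma membrane carnitine transporter, rose by 0.82 with DOX plus IFN-γ (adjusted p = 0.00105) and 0.76 with DOX (adjusted p = 0.00162). Aldh9a1, an enzyme of carnitine synthesis, rose by 0.73 with DOX plus IFN-γ (adjusted p = 0.00125) and 0.99 with DOX (adjusted p = 0.000279). Crat, carnitine acetyltransferase, fell (-0.41 with DOX plus IFN-γ and -0.33 with DOX). Among 15 genes of fatty acid transport and binding, 1 rose and 3 fell in each comparison. Transport and binding thus had 26.7% of its genes called with DOX plus IFN-γ (28.6% of the 7 above the limit, median change -0.043) and 26.7% with DOX (28.6% of the 7, median change -0.006). Above the limit these shares are below those of all genes. The lipoprotein receptor gene Vldlr rose by 0.69 with DOX plus IFN-γ and 0.65 with DOX. Got2, a mitochondrial aminotransferase also found at the plasma membrane, fell (-0.64 with DOX plus IFN-γ and -0.59 with DOX). The acyl-CoA-binding protein gene Dbi fell (-0.41 with DOX plus IFN-γ and -0.28 with DOX). The fatty acid transporter gene Slc27a6 fell as well (-0.24 with DOX plus IFN-γ and -0.25 with DOX). Dbi and Slc27a6 averaged at or below the limit.

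Of the 11 genes listed under malonyl-CoA control, which include the sirtuin genes Sirt3 and Sirt5, 2 rose and 1 fell in each comparison with Con. Malonyl-CoA control thus had 27.3% of its genes called with DOX plus IFN-γ (50% of the 6 above the limit, median change -0.001) and 27.3% with DOX (33.3% of the 6, median change 0.064). The share above the limit with DOX is that of all genes to within 1 percentage point. Acaca, which makes malonyl-CoA and starts fatty acid synthesis, read 6.61, 6.62 and 6.65 on the DOX plus IFN-γ arrays, 6.71, 6.71 and 6.73 on the DOX arrays, and 8.31, 8.24 and 7.92 on the Con arrays. Every treated array lay below every Con array, and the difference from Con was -1.53 with DOX plus IFN-γ (adjusted p = 2.30e-05) and -1.44 with DOX (adjusted p = 2.77e-05). Prkaa2, a catalytic subunit of AMP-activated protein kinase, rose by 0.72 with DOX plus IFN-γ and 0.59 with DOX. The other gene that rose with DOX plus IFN-γ was Prkaa1, the other catalytic subunit (0.64). With DOX it was the dim Sirt3, a mitochondrial deacetylase (0.22).

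Lipid droplet genes were led by Dgat2, which makes triglyceride from acyl-CoA. Dgat2 read 8.32, 8.38 and 8.56 on the DOX plus IFN-γ arrays, 8.64, 8.86 and 8.36 on the DOX arrays, and 6.63, 6.55 and 6.86 on the Con arrays. The treated arrays lay above all Con arrays, with a rise of 1.74 with DOX plus IFN-γ (adjusted p = 6.69e-05) and 1.94 with DOX (adjusted p = 4.02e-05). Of 15 genes of lipolysis and lipid droplets, 4 rose and 2 fell with DOX plus IFN-γ, and 5 rose and 1 fell with DOX. Lipid droplet metabolism thus had 40% of its genes called with DOX plus IFN-γ (60% of the 10 above the limit, median change 0.019) and 40% with DOX (60% of the 10, median change 0.046). Pnpla2, the first lipase of triglyceride breakdown, rose by 0.40 with DOX plus IFN-γ and 0.69 with DOX. The droplet coat gene Plin2 rose by 0.42 with DOX plus IFN-γ and 0.51 with DOX, and Agpat2, of triglyceride synthesis, rose by 0.30 with DOX plus IFN-γ and 0.33 with DOX.

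Of 22 further mitochondrial acyl-CoA enzymes, 5 rose and 4 fell with DOX plus IFN-γ, and 5 rose and 3 fell with DOX. This group of enzymes thus had 40.9% of its genes called with DOX plus IFN-γ (50% of the 14 above the limit, median change -0.047) and 36.4% with DOX (50% of the 14, median change -0.021). Hsd17b10, of branched-chain amino acid and fatty acid breakdown, fell (-1.21 with DOX plus IFN-γ and -0.97 with DOX), and Acat1, of ketone and isoleucine metabolism, fell (-0.69 with DOX plus IFN-γ and -0.69 with DOX). Acad11, an acyl-CoA dehydrogenase of long chains, was dim and rose by 0.91 with DOX plus IFN-γ and 0.83 with DOX. Acad8, of valine breakdown, rose by 0.75 with DOX plus IFN-γ and 0.74 with DOX. Among 16 peroxisomal genes, 1 rose (the dim thioesterase gene Acot8, 0.25) and 1 fell with DOX plus IFN-γ. With DOX, 0 rose and 1 fell. Peroxisomal oxidation thus had 12.5% of its genes called with DOX plus IFN-γ (33.3% of the 3 above the limit, median change -0.043) and 6.25% with DOX (33.3% of the 3, median change -0.03). The gene that fell was Hsd17b4, of the peroxisomal cycle (-0.24 with DOX plus IFN-γ and -0.23 with DOX).

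Of 20 nuclear receptor and coactivator genes, 2 rose and 2 fell with DOX plus IFN-γ, and 1 rose and 2 fell with DOX. The receptor list thus had 20% of its genes called with DOX plus IFN-γ (30% of the 10 above the limit, median change -0.008) and 15% with DOX (20% of the 10, median change 0.013). These shares are near or below those of all genes. The transcription factor gene Cebpb rose by 0.79 with DOX plus IFN-γ and 0.77 with DOX, and Hif1a, of the response to low oxygen, rose by 0.61 with DOX plus IFN-γ. Nrf1, an activator of respiratory chain genes, fell (-0.23 with DOX plus IFN-γ and -0.23 with DOX). The dim Lpin2, a lipin, fell as well (-0.21 with DOX plus IFN-γ and -0.21 with DOX). Ppargc1a, a coactivator of mitochondrial genes, differed by 0.29 with DOX plus IFN-γ (adjusted p = 0.132) and 0.25 with DOX (adjusted p = 0.214). Of 17 PPAR targets outside the 27 genes, 2 rose and 2 fell with DOX plus IFN-γ, and 2 rose and 1 fell with DOX. The PPAR target list thus had 23.5% of its genes called with DOX plus IFN-γ (80% of the 5 above the limit, median change 0.013) and 17.6% with DOX (60% of the 5, median change 0.002). Those that rose were Plin2 and Tmem135 (0.23 with DOX plus IFN-γ and 0.19 with DOX), and those that fell were Pdk2 (-0.34 with DOX plus IFN-γ and -0.24 with DOX) and, with DOX plus IFN-γ, the monoglyceride lipase gene Mgll (-0.26). Angptl4, a lipoprotein lipase inhibitor, differed by 0.17 with DOX plus IFN-γ (adjusted p = 0.146) and 0.15 with DOX (adjusted p = 0.216).

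The list of 6 pyruvate dehydrogenase kinases and phosphatases had 2 that fell in each comparison, the kinase genes Pdk2 and Pdk3 (-0.37 with DOX plus IFN-γ and -0.32 with DOX for Pdk3). Pyruvate dehydrogenase control thus had 33.3% of its genes called with DOX plus IFN-γ (40% of the 5 above the limit, median change -0.101) and 33.3% with DOX (40% of the 5, median change -0.054). Of 6 uncoupling and adenine nucleotide carrier genes, 2 fell in each. The carrier list thus had 33.3% of its genes called with DOX plus IFN-γ (66.7% of the 3 above the limit, median change -0.002) and 33.3% with DOX (66.7% of the 3, median change -0.016). Slc25a5 fell (-1.01 with DOX plus IFN-γ and -0.85 with DOX), and its fall with DOX missed the threshold after quantile normalization (adjusted p = 0.0757). Slc25a4 fell (-0.56 with DOX plus IFN-γ and -0.42 with DOX). No gene of the 10 lists passed between DOX plus IFN-γ and DOX.

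Of 36 list genes called with DOX plus IFN-γ, 12 lost the call when some single array was left out, and of 33 called with DOX, 10 did. In other settings only, 14 more lost it with DOX plus IFN-γ and 13 more with DOX. The call held in every setting for 10 genes in each comparison. Slc22a5, Got2, Dbi, Cebpb, Plin2, Agpat2, Nrf1, Hsd17b4, Pdk3 and Slc25a4 lost it in both comparisons on the 6 arrays that reach the top value. So did Crat, Slc27a6, Lpin2, Pdk2 and Tmem135. On the same arrays Prkaa2 and Sirt3 lost it with DOX, and Pnpla2, Mgll and Acot8 with DOX plus IFN-γ. Those 6 arrays leave Con with 1 array. With DOX plus IFN-γ, Prkaa1 lost it without DOX plus IFN-γ replicate 2 (0.62, adjusted p = 0.0518) and Pnpla2 without DOX plus IFN-γ replicate 2 (0.36, adjusted p = 0.0512). Hif1a lost it without DOX plus IFN-γ replicates 1 or 2 or Con replicates 2 or 3 (0.48 to 0.65, adjusted p = 0.0586 to 0.0867) and Lpin2 without DOX plus IFN-γ replicates 1 or 2 or Con replicates 1 or 2 (-0.22 to -0.19, adjusted p = 0.0539 to 0.0755). Slc27a6 lost it without DOX plus IFN-γ replicates 1 or 2 or Con replicate 2 (-0.24 to -0.19, adjusted p = 0.0572 to 0.0742). Mgll lost it without DOX plus IFN-γ replicates 1, 2 or 3 or DOX replicate 1 or Con replicates 2 or 3 (-0.28 to -0.22, adjusted p = 0.0595 to 0.129), and Acot8 without DOX plus IFN-γ replicates 2 or 3 or DOX replicates 1, 2 or 3 or Con replicates 2 or 3 (0.20 to 0.26, adjusted p = 0.0604 to 0.118). With DOX, Pdk2 lost it without DOX replicate 2 (-0.21, adjusted p = 0.0641) and Tmem135 without DOX replicates 1 or 2 or Con replicate 2 (0.17 to 0.20, adjusted p = 0.0635 to 0.0923). Crat lost it without DOX replicates 1 or 3 or Con replicates 2 or 3 (-0.34 to -0.25, adjusted p = 0.0533 to 0.0893) and Slc27a6 without DOX replicates 1, 2 or 3 or Con replicate 2 (-0.25 to -0.19, adjusted p = 0.0523 to 0.0634). Sirt3 lost it without DOX replicates 2 or 3 or Con replicates 1 or 2 (0.18 to 0.24, adjusted p = 0.0531 to 0.0918) and Lpin2 without DOX replicates 2 or 3 or Con replicates 1 or 2 (-0.21 to -0.19, adjusted p = 0.0685 to 0.0736). The calls of Acaca, Dgat2, Aldh9a1, Hsd17b10, Acat1, Acad11, Acad8 and Vldlr against Con held in every setting in which they were tested. Acad11 is not among the genes above the limit and was not tested in that setting.

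**Figure D5:**
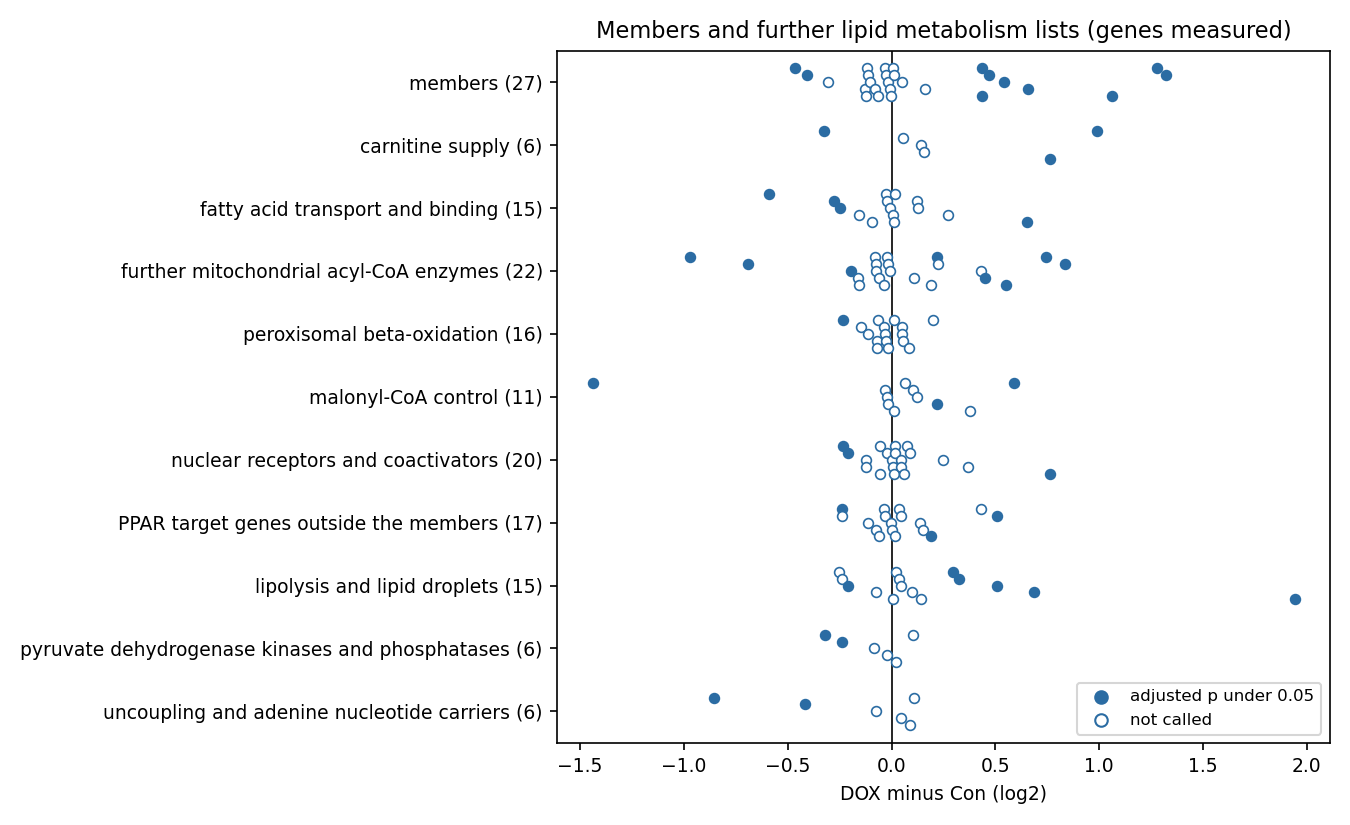
Difference between DOX and Con on the log2 scale (horizontal axis) for each gene of the 27 and of the 10 further lists, with filled points for an adjusted p under 0.05 and the number of genes measured in brackets. Acaca of malonyl-CoA control is the point farthest left and Dgat2 of lipolysis and lipid droplets the point farthest right.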

How the data were processed

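The data were log2 expression values of transcript clusters on 9 arrays, in 1 table that the authors deposited. Per the submitters' processing notes, the table was made with RMA, a method of background correction, between-array normalization and probe summary whose settings the sources used here do not give. The values themselves show the log2 scale. No further normalization was applied. Of 65527 clusters, the platform annotation lists 32493, and 30376 with a single symbol gave 30050 genes. Group means were fitted to all 9 arrays by lmFit and eBayes of limma 3.58.1 under R 4.3.3, with 6 residual and 2.41 prior degrees of freedom. Tests were two-sided, the Benjamini-Hochberg adjustment ran over all 30050 genes, and calls were made at an adjusted p of 0.05. Precision is limited by the number of arrays, with a 95% interval of ±0.19 for the median gene.

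The genes and lists were chosen with earlier results of these data known, so no count of them is independent support. The text gives every array's value for genes called against Con and for Cd36, Cpt1a, Cpt1b, Acadm, Ppara and Pdk4, and names up to 4 called genes of largest change in each list. Acaca, Dgat2, Myog and Myh6 were also given in detail, chosen after their values were seen. Alternatives were quantile normalization, median centring, genes above the limit only, the mean of a gene's clusters, only the groups compared, blocks for replicate number and for the array grouping, an intensity trend, the 6 arrays that reach the top value, and leaving out each array. Same-numbered arrays deviated from their group means with correlations from -0.159 to 0.358, so the numbers were not taken to pair the arrays. List genes without a value were not analysed here.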

Additional observations from a re-analysis of the deposited data

How the results depend on the processing

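Against Con, 9 of the 10 genes called with DOX and 6 of the 9 called with DOX plus IFN-γ kept their direction and call in the 18 settings, wherever they were tested (Mlycd is not among the genes above the limit). No call changed sign. The 6 arrays that reach the top value, which leave Con with 1 array that is assumed to vary like the others, moved the counts most: over all genes, 858 higher and 1376 lower with DOX plus IFN-γ, and 1083 higher and 1374 lower with DOX. Of the 27 genes, 4 were then higher with DOX plus IFN-γ, and 1 was lower with DOX. With each array left out in turn, genes higher with DOX plus IFN-γ numbered 1682 to 2300 and lower 2049 to 2892 (2407 and 2827 with all arrays). Genes higher with DOX numbered 1749 to 2381 and lower 1580 to 2249 (2423 and 2264 with all arrays). Of the 27 genes, 5 to 7 stayed higher with DOX plus IFN-γ and 8 with DOX, and 2 stayed lower in both. Between DOX plus IFN-γ and DOX, 0 to 1 genes were lower, the 1 being Olfr1208 without Con replicate 3 (-0.72, adjusted p = 0.0156, against 0.506 with all arrays). With the replicate block, 2293 genes were higher and 2695 lower with DOX plus IFN-γ, 2270 higher and 2202 lower with DOX, and 0 called between the treated groups, and the 27 genes gave 7 higher and 2 lower with DOX plus IFN-γ and 8 higher and 2 lower with DOX, as without it. The array grouping as a block gave 8 higher and 2 lower among the 27 genes in both comparisons with Con. For the 9 genes at or below the limit, low signal limits how small a change can be seen.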
